A study of Apis mellifera with 36 samples.

Results

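Honeybee embryos carried a small number of transcripts at very high levels. Described here are 4 genes that were among the top of the counts in at least 1 sex at 24 or 48 h. They were LOC100578903 and LOC102655058, which the annotation calls uncharacterized protein-coding genes, LOC409681, which it calls RWD domain-containing protein 1-like, and LOC102654857, an annotated lncRNA. These 4 of the 12365 genes in the deposited tables were chosen by their share of the counts at 24 or 48 h after egg laying (AEL), so that their levels at those times are given as a description and carry no test. RNA of 36 single embryos of Apis mellifera was sequenced, 3 for each of 2 queens (P1 and P2), both sexes and 3 times, 24, 48 and 72 h AEL. The earliest embryos were of 24 h, so that the RNA of the freshly laid egg was not measured. Female embryos were worker eggs, laid fertilized and diploid, and male embryos were drone eggs, laid unfertilized and haploid, each sex being known from the type of frame in which the same queen had laid. The embryos received no treatment. Each library came from 1 whole embryo, so that the n of a group counts embryos, 3 from each queen, and a smaller number of cells holding a transcript cannot be told apart from less of it in each cell.

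An egg starts with RNA made by the mother, and during the maternal-to-zygotic transition this RNA is cleared while the embryo's own genome is switched on. A transcript of the egg that is not renewed falls during this time, and one that the embryo makes itself rises. The RWD domain is a protein interaction fold, and in mammals the protein RWDD1 binds a small developmentally regulated GTP-binding protein. For the other protein-coding members no role is given in the annotation.

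LOC100578903 (gene3969) lies on linkage group 5 of the Amel_4.5 build, from 1971336 to 1975483 on the plus strand. Its single transcript has 4 exons with 2982 bp in all, of which 2201 bp are in the last exon, and codes for 234 residues. The whole gene is within the span of Nrx-1 (neurexin 1, a synaptic adhesion protein), which runs on the opposite strand and shares 0 exonic bp with it. LOC102654857 (gene4080) is on the same linkage group, from 5272098 to 5375412, transcribed from the minus strand. Its 3 transcripts cover 6 exons and 45820 bp, and a single exon from 5272098 to 5316882 accounts for 44785 bp of this length. It overlaps no other gene, and its neighbours are LOC100578984, 4645 bp away, and IGFn3-9 (a gene of immunoglobulin-like and fibronectin domains), 134 bp away.

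LOC102655058 (gene11626) and LOC409681 (gene11627) are directly next to each other on linkage group 15, both on the plus strand. The former runs from 8784928 to 8810585, has 3 exons with 1095 bp in all and codes for 163 residues. The latter runs from 8810501 to 8812172, has 2 transcripts with 1181 bp of exons and codes for 218 or 239 residues. The end of LOC102655058 and the start of LOC409681 share 85 exonic bp, so that reads from this stretch could belong to either gene. Of the 3 exons of LOC102655058, 2 are in the span of LOC409680 (tubby-related protein 4-like) on the opposite strand, with 0 exonic bp shared. The use of the strand in counting is not given in the sources used here, so that unspliced reads of an enclosing gene could fall on the exons of a member, while the exons themselves are apart in position.

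Levels are given on 3 scales. The share of counts is the percentage of all counts on the 12365 genes of an embryo that fell on 1 gene. RPKM is the authors' value, reads per kilobase of exons and per unit of a larger read total, and is the scale on which genes of different length can be compared. The fitted comparison at 72 h used counts scaled by the TMM method, which sets library sizes so that the bulk of genes is balanced. The sum of counts ran from 7122090 to 12808580 per embryo at 24 h, from 3222023 to 7944906 at 48 h, from 5600680 to 7345814 in 72 h females and from 1195774 to 2008560 in 72 h males. The listed genes held 79.3% ± 1.97 (SD, n = 6) of the total behind the RPKM in 24 h females and 66.1% ± 3.07 in 72 h females, but 25.96% ± 4.82 in 72 h males, so that the share of counts and RPKM diverge most in that group.

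At 24 h AEL the 4 transcripts together took about the same share of the counts in both sexes. The lowest, median and highest of the 6 female embryos were 9.46%, 10.3% and 10.5%, and those of the 6 male embryos 10.02%, 10.4% and 10.6%. At 48 h the share was 14.02%, 16.4% and 18.1% in females and 9.05%, 10.3% and 15.97% in males, which overlapped through 1 male embryo. The rule of choice did not use the levels at 72 h. At that time the share was 0.58%, 1.19% and 3.50% in females and 7.73%, 8.38% and 8.63% in males, with no overlap. The mean share of counts at 72 h was thus 11.7-fold below that at 48 h in females and 1.35-fold below it in males. The 48 h levels served to choose the members. LOC102655058 and LOC409681 ranked 2 and 3 by mean share in 48 h females, but 33 and 46 in 48 h males. A larger fall from 48 h in females can therefore be set in part by the choice. As a share of the total behind the RPKM the 72 h sexes overlapped, with 0.361% to 2.36% in females and 1.64% to 2.58% in males, and the means lay 2.28-fold apart. On that scale the mean at 72 h was 10.8-fold below that at 48 h in females and 2.84-fold below it in males.

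Among the 12365 listed genes, LOC100578903 had the highest share of counts in every embryo at 24 and 48 h. Reads outside these genes are not ranked. The paper reports Nb-1 as the most highly expressed lncRNA in both sexes. At its highest, Nb-1 took a larger share of reads on annotated genes there than LOC100578903 did in any embryo here. No top-ranked gene here carries the name Nb-1. At 24 h LOC100578903 took 6.47%, 7.28% and 8.63% (lowest, median and highest) of the counts of female embryos and 6.26%, 6.72% and 7.26% of those of male embryos. At 48 h the values were 12.4%, 14.4% and 16.03% in females and 5.81%, 7.37% and 14.4% in males. Every 48 h female was therefore above every 24 h female, by 1.95-fold on average, while the 48 h males spread around the 24 h level on this scale. In TMM-scaled CPM (counts relative to the TMM library size) every 48 h male, from 73300, was also above every 24 h male, up to 71190, and the means were 1.58-fold higher in males and 1.68-fold in females. The spread in males came from embryo 6 of queen P1, at 14.4%, against 5.81% to 9.24% in the other 5, and without it the male mean was 7.20% instead of 8.41%. In that embryo the listed genes also held 67.0% of the total behind the RPKM, the highest of the 48 h males, of which the mean was 53.5% ± 7.22. Whether the one bears on the other was not tested.

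Per length, LOC100578903 was first of all listed genes in both sexes at 24 h and in 48 h females. Its RPKM averaged 19630 ± 2481 (SD, n = 6) in 24 h females and 17300 ± 1021 in 24 h males, the highest of all listed genes, ahead of LOC102655073 (a histone H4-like gene) at 13050 and 12840. In 48 h females it reached 29820 ± 3377 and was still first, and in 48 h males it was 15670 ± 8667 and second to LOC102655096, an uncharacterized gene, at 79840. At 72 h its RPKM was 3005 ± 2414 in females, rank 13 by the mean and from 4 to 62 in single embryos, and 3447 ± 831 in males, rank 3. On this scale the 2 sexes overlapped, with 1106 to 7704 in females and 2249 to 4375 in males.

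LOC102654857, the lncRNA, was second by mean share of counts at 24 h in both sexes and then went separate ways in the sexes. At 24 h it took 1.41%, 2.41% and 3.73% (lowest, median and highest) of the counts in females and 2.62%, 3.30% and 3.94% in males. At 48 h these values were 0.0701%, 0.133% and 0.170% in females, below every male embryo at 0.837%, 2.50% and 3.30%. At 72 h they were 0.0105%, 0.0111% and 0.0177% in females, which still rest on 619 to 1230 counts per embryo, and 3.81%, 4.08% and 4.58% in males. The mean female share was thus 19.5-fold lower at 48 than at 24 h, and 9.92-fold lower again at 72 h, 193-fold in all.

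The male course of the lncRNA depended on the scale. Its share of counts averaged 3.33% ± 0.501 at 24 h, 2.29% ± 0.952 at 48 h and 4.14% ± 0.302 at 72 h (SD, n = 6 each), and every 72 h male was above every 48 h male. Its RPKM, which has the larger total in the denominator, went from 557 ± 82.6 to 256 ± 88.9 and 232 ± 34.5, and the 48 and 72 h males overlapped. In TMM-scaled CPM the male mean at 72 h was 2.35-fold above that at 48 h and 2.06-fold above that at 24 h, without overlap. In females each time was below the one before on both scales without overlap, with RPKM of 421 ± 141, 16.8 ± 4.06 and 1.84 ± 0.492. Its long exon also sets this transcript apart from the other members. At 24 h it was second by share of counts but ranked 93 of the 12365 genes by RPKM, where the 3 other members ranked 1, 28 and 31.

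LOC102655058 and LOC409681, the adjacent pair, were modest at 24 h and peaked in 48 h females. LOC102655058 took 0.0913%, 0.146% and 0.162% (lowest, median and highest) of the counts in 24 h females and 0.789%, 1.09% and 1.23% in 48 h females. LOC409681 went from 0.0973%, 0.149% and 0.187% to 0.719%, 0.944% and 1.03%. In both genes every 48 h female was above every 24 h female, with means 7.47-fold and 6.09-fold higher, and the pair took ranks 2 and 3 of all genes by mean share in 48 h females.

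In male embryos the pair was also highest on average at 48 h by share of counts and TMM-scaled CPM, but lower there than in females. By RPKM this held for LOC102655058, with male means of 965, 1296 and 205 at 24, 48 and 72 h. It did not hold for LOC409681, with 1057, 890 and 262. LOC102655058 took 0.106%, 0.142% and 0.156% of the counts in 24 h males and 0.153%, 0.232% and 0.407% in 48 h males, and LOC409681 0.142%, 0.167% and 0.177% and then 0.119%, 0.174% and 0.285%. The 24 and 48 h males overlapped for both genes by share of counts. In TMM-scaled CPM the 48 h males of LOC102655058 were above the 24 h males without overlap, with means of 3140 and 1335 and of 1339 at 72 h, while LOC409681 had 1574, 2344 and 1909 with overlap between neighbouring times. By each of the 3 scales, every 48 h female was above every 48 h male. The highest 48 h male by share was again embryo 6 of queen P1, and the next was embryo 29 of queen P2 with 0.340% and 0.245%.

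**Figure D1:**
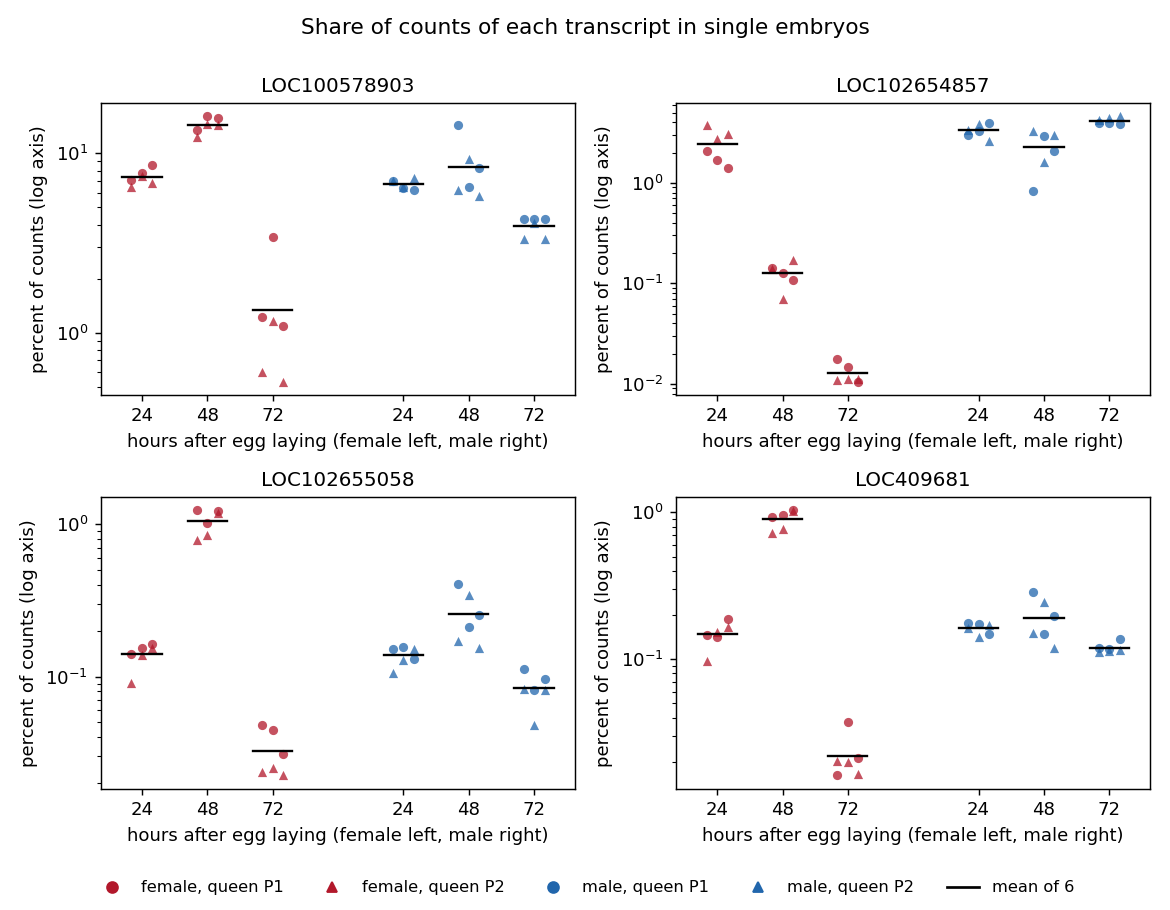
Share of counts of the 4 transcripts in each of the 36 embryos (percent, log axis) against time after egg laying, female embryos on the left and male embryos on the right of each panel; circles are embryos of queen P1, triangles of queen P2 and bars the mean of 6. LOC102654857 drops in females to between 0.0105% and 0.0177% and is at 0.837% or more in every male, while LOC102655058 and LOC409681 peak in 48 h females.

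**Figure D2:**
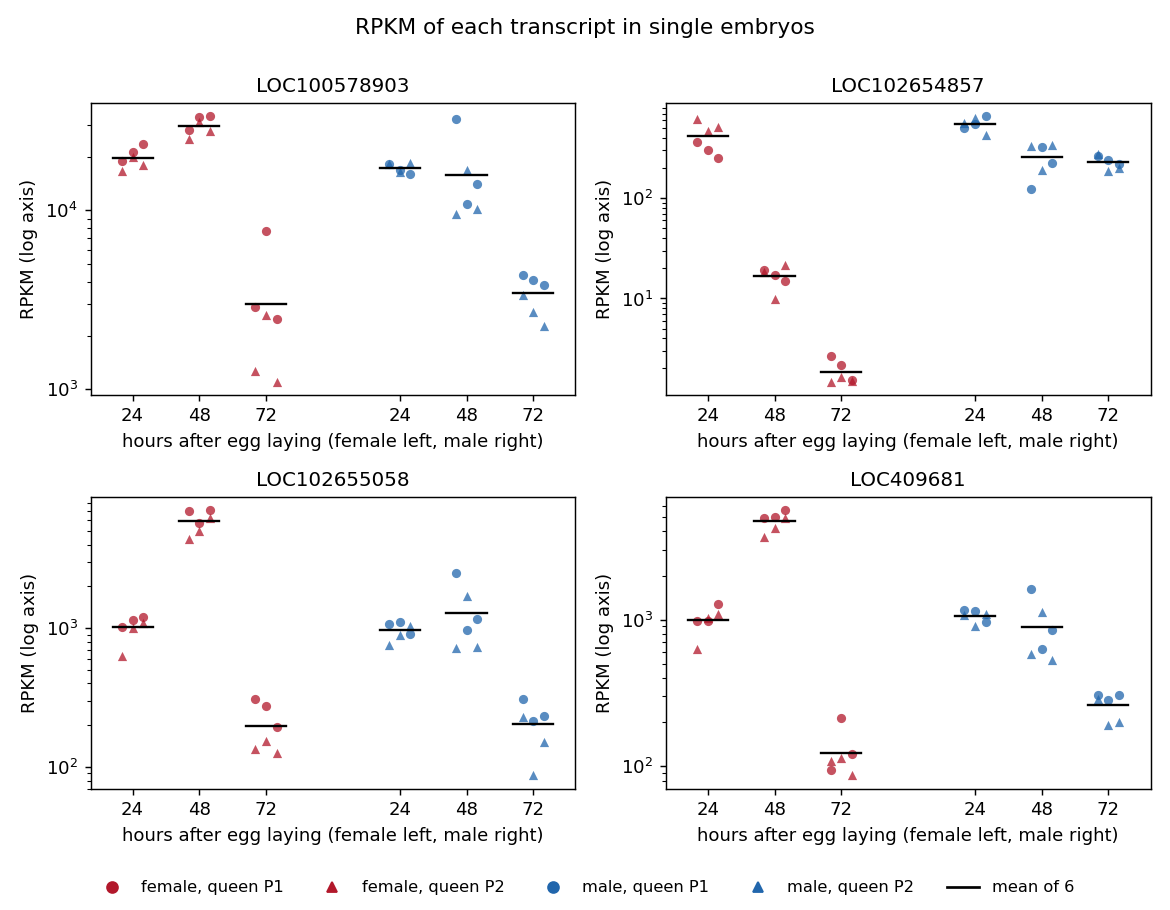
RPKM of the same 4 transcripts in the same embryos (log axis), with the symbols and bars of the plot of shares. At 72 h the sexes overlap for LOC100578903, LOC102655058 and LOC409681 on this scale, and do not for LOC102654857.

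Between 48 and 72 h the pair went from its peak in females to levels below those at 24 h. The fall from 48 to 72 h in mean share was 32.1-fold for LOC102655058 and 41.2-fold for LOC409681, starting from 48 h levels that served to choose both. At 72 h LOC102655058 took 0.0225%, 0.0282% and 0.0484% in females and 0.0483%, 0.0826% and 0.112% in males. LOC409681 took 0.0161%, 0.0202% and 0.0376% in females and 0.112%, 0.117% and 0.137% in males. The highest female and the lowest male overlapped for the former gene, and for the latter the sexes did not overlap. Every 72 h female was below every 24 h female for both.

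Per length the 2 neighbours stayed close to each other, though not in a fixed ratio. The RPKM of LOC102655058 divided by that of LOC409681 had a median of 1.01 in 24 h females, 1.22 in 48 h females and 1.41 in 72 h females, and of 0.958, 1.44 and 0.761 in males at the same times. The ratio was highest, at 3.24, in the 72 h female embryo 4 of queen P1, where LOC102655058 had 308 and LOC409681 95.2 RPKM. In the 72 h males it ran from 0.458 to 1.02, below every 72 h female, which began at 1.25. These ratios include the reads of the shared 85 bp.

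LOC409680, LOC102655125 and Mdh, the genes closest to the pair on linkage group 15, were also highest in 48 h females. The courses over time of the further genes within 50 kb were not examined. LOC409680, whose span holds part of LOC102655058, had an RPKM of 0.67 to 1.16 in 24 h females, 48.2 to 76.1 in 48 h females and 3.05 to 9.43 in 72 h females, and at most 1.37 in any male. LOC102655125, an lncRNA before the pair, was listed at 0 in all 24 h females, had 4.08 to 20.7 in 48 h females and at most 0.59 in any male. Mdh, which encodes malate dehydrogenase of the citric acid cycle and starts 126 bp after LOC409681, averaged 7.48 ± 0.920 in 24 h females, 45.1 ± 5.02 in 48 h females and 4.24 ± 0.886 in 72 h females (SD, n = 6). LOC409680, LOC102655125 and Mdh thus had their highest level in 48 h females, where the pair averaged 5886 and 4726. The pair itself was chosen for its high share of counts, so that its own peak there adds nothing to this. How many of all listed genes also had their highest mean in 48 h females was not counted. The male means of Mdh were 7.55 ± 1.18, 1.51 ± 1.06 and 0.587 ± 0.282 over the same times.

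**Figure D3:**
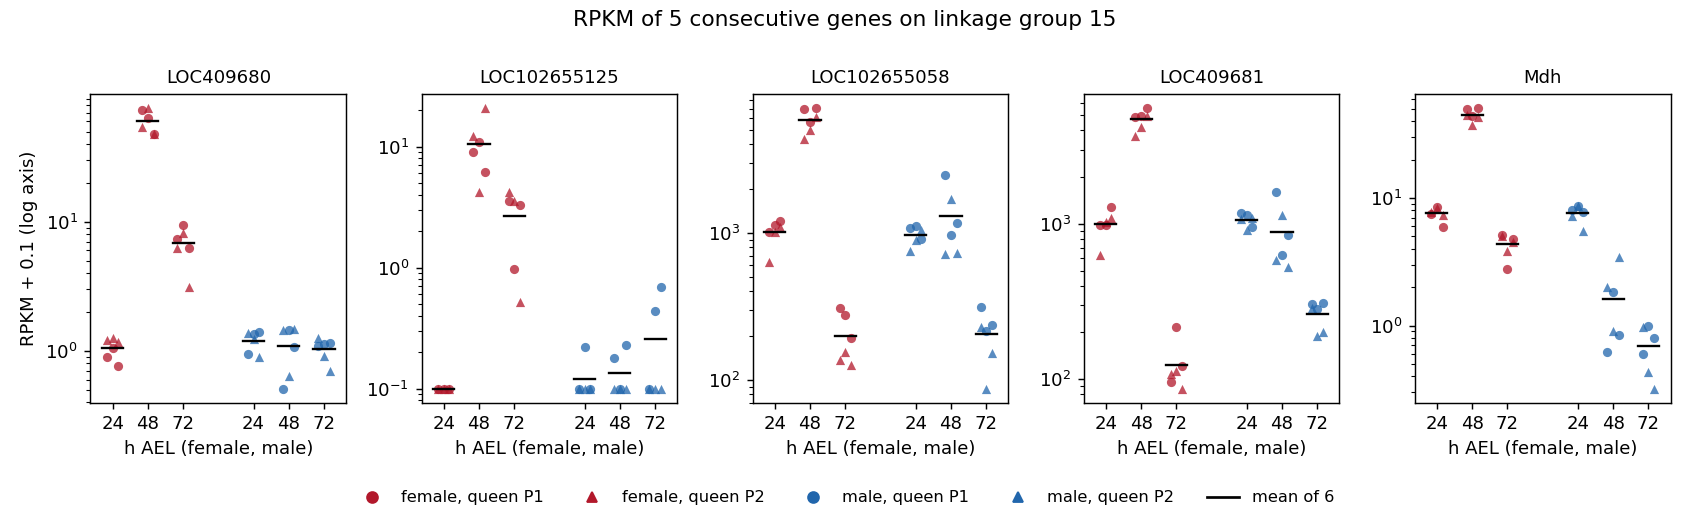
RPKM plus 0.1 (log axis) of 5 consecutive annotated genes on linkage group 15 in each embryo, female on the left and male on the right of each panel, with the symbols of the plot of shares. The 48 h females are the highest group for each gene, from a mean of 10.5 RPKM for LOC102655125 to 5886 for LOC102655058.

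The neighbours of the lncRNA LOC102654857 had different courses from each other. LOC100578984, uncharacterized and on the opposite strand, went from a mean RPKM of 64.2 to 35.1 and 2.17 in females and from 79.4 to 11.6 and 8.24 in males. IGFn3-9 was at low levels but was also highest in 48 h females. Its means were 0.283, 5.21 and 1.52 RPKM in females at 24, 48 and 72 h and 0.262, 0.46 and 0.492 in males. The 48 h females ran from 4.44 to 6.42, above every other embryo, the highest of which had 2.33. Nrx-1, around LOC100578903, had means from 0.302 to 0.800 RPKM over its exons and so stayed far under the gene it encloses. The paper names Nrx-1 among the genes whose introns held the most highly expressed lncRNAs. Whether reads of such RNA were counted on LOC100578903 was not tested. LOC724385, the gene after LOC100578903, had means of 3.82, 0.663 and 0.447 in females and of 4.74, 5.90 and 5.34 in males. The gene before it, Trnas-cga, is not in the tables.

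The difference between the sexes at 72 h was tested because the rule of choice did not use those levels. The members were, however, chosen with earlier results of these data known, so that the choice may not be independent of this comparison. Fitted over the 36 embryos, with a group for each sex at each time and a term for the queen (edgeR quasi-likelihood F-test, Benjamini-Hochberg adjustment over 9575 genes), all 4 transcripts were lower in females. LOC102654857 had a log2 fold change, female over male, of -9.57 (SE 0.34, edgeR adjusted p = 1.59e-26). LOC409681 followed with -3.69 (SE 0.19, edgeR adjusted p = 4.73e-21), LOC100578903 with -2.86 (SE 0.25, edgeR adjusted p = 2.45e-13) and LOC102655058 with -2.62 (SE 0.19, edgeR adjusted p = 4.50e-16). Calls in this direction were made for 26.8% of all genes tested, and 38.2% were called higher in females. The median log2 fold change of all genes was 0.41, and relative to it the members had -3.27 (LOC100578903), -9.98 (LOC102654857), -3.04 (LOC102655058) and -4.10 (LOC409681).

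For 2 of the 4 genes the call depended on the total that the counts were divided by. With the sum of counts alone as library size the median of all genes moved to 1.64, and of the called genes 80.2% instead of 58.8% were higher in females. The members then had log2 fold changes of -1.62, -8.33, -1.39 and -2.45 for LOC100578903, LOC102654857, LOC102655058 and LOC409681, all still called. With the total behind the RPKM, a scaling chosen after seeing the data, the median moved to 2.97, and 91.1% of the called genes were higher in females. On that scale LOC102654857 (-6.98, edgeR adjusted p = 6.50e-27) and LOC409681 (-1.09, edgeR adjusted p = 1.73e-06) were still called, and LOC100578903 (-0.26, edgeR adjusted p = 0.31) and LOC102655058 (-0.06, edgeR adjusted p = 0.787) were not. A change of library size shifts all genes by about the same amount, so that the values relative to the median of all genes, -3.23, -9.95, -3.03 and -4.07 here, are close to those above by construction.

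**Figure D4:**
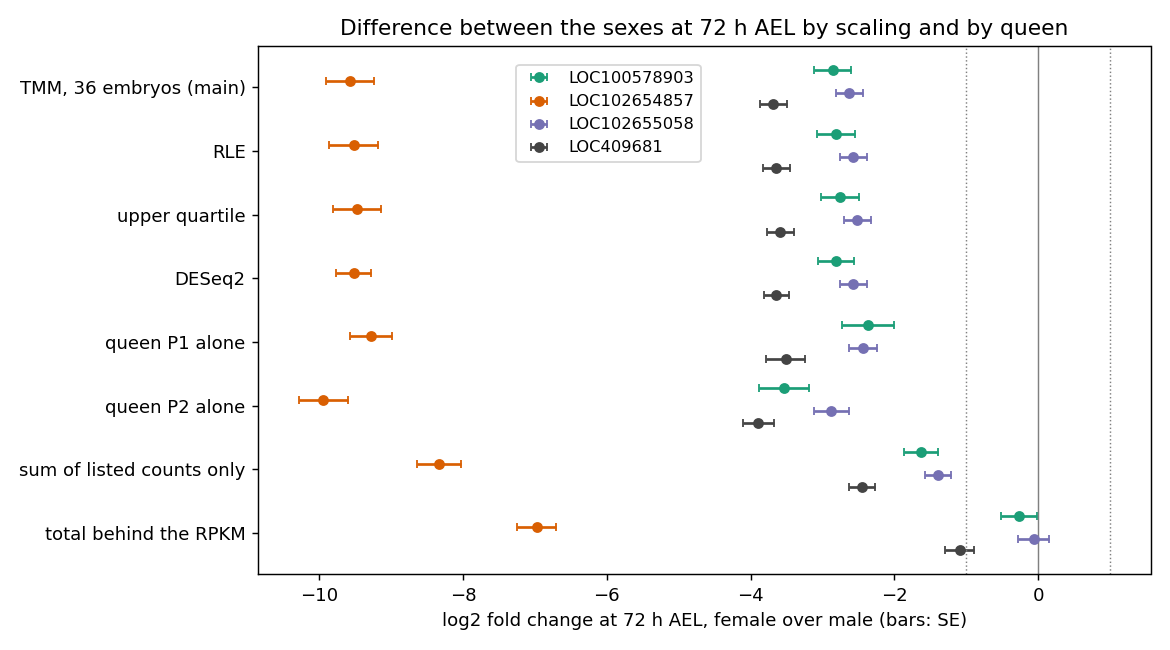
Log2 fold change between female and male embryos at 72 h (female over male, bars are the SE) of each transcript under 5 ways to set the library size, with DESeq2, and in each queen alone; dotted lines mark a change of 1 in either direction. LOC102654857 stays at -6.98 or lower under each, whereas LOC100578903 and LOC102655058 come close to 0 with the total behind the RPKM.

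The same comparison on the share of counts gave the size of the differences in percentage points. The lncRNA took 4.12 percentage points less of the counts in females than in males (exact permutation test on both sides, p = 0.00216, the lowest value that 6 against 6 embryos can give). For LOC100578903 the difference was -2.60 points (exact permutation test, p = 0.00649), for LOC409681 -0.0972 points (exact p = 0.00216) and for LOC102655058 -0.0515 points (exact p = 0.00433). As a share of the total behind the RPKM, the differences were -0.132 points (exact p = 0.749) for LOC100578903 and -0.000673 points (exact p = 0.896) for LOC102655058, against -1.06 (exact p = 0.00216) for the lncRNA and -0.0164 (exact p = 0.00649) for LOC409681. These tests rest on the same embryos as the fit.

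Within each queen, which is also the batch in the labels, no female overlapped a male at 72 h for any of the 4 transcripts by share of counts. LOC100578903 took 1.09% to 3.40% in P1 females and 4.29% to 4.32% in P1 males, and 0.534% to 1.16% in P2 females and 3.31% to 4.09% in P2 males. Its overlap over both queens therefore came from P1 female embryo 15, at 3.40%, which lay above the 2 lowest P2 males. By RPKM, which carries the larger total, the P1 means were higher in females for LOC100578903 (4351 ± 2910 against 4112 ± 262) and LOC102655058 (258 ± 59.0 against 253 ± 51.8, SD, n = 3 each), with overlap for both. With 3 embryos against 3 the exact permutation test gave p = 0.1 for each transcript in each queen, and it cannot go lower there. The edgeR fit of each queen alone called all 4, with log2 fold changes of -2.36 and -3.54 for LOC100578903, -9.28 and -9.94 for LOC102654857, -2.43 and -2.88 for LOC102655058, and -3.51 and -3.89 for LOC409681 in P1 and P2. A difference of the sex effect between queens was not called for any of them (edgeR interaction, adjusted p from 0.625 to 0.812). The largest was a log2 difference of 1.16 (SE 0.51) for LOC100578903 (edgeR interaction, unadjusted p = 0.0359). LOC102654857 had 0.64 (SE 0.30, edgeR interaction, unadjusted p = 0.0458). Both were among the 714 of 9210 genes tested there with an unadjusted p under 0.05, and 0% of the 9210 were called. With 3 embryos per queen and sex, such a difference could be missed.

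The 2 listed transcripts with the highest mean share of counts at 24 h went in opposite directions from embryo to embryo at that time. Among the 24 h females, P1 embryo 9 had the highest share of LOC100578903 (8.63%) and the lowest of the lncRNA (1.41%), and P2 embryo 35 had the lowest of the former (6.47%) and the highest of the latter (3.73%). The queens did not overlap here, with 1.41% to 2.09% of the lncRNA in P1 females and 2.74% to 3.73% in P2 females. The 24 h males showed the same order at their ends, with 6.26% and 3.94% in P1 embryo 5 and 7.26% and 2.62% in P2 embryo 8. In 48 h males, P1 embryo 6 had the highest share of LOC100578903 (14.4%) and the lowest of the lncRNA (0.837%). Both are shares of the same total, and the part of this in the pattern was not tested.

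**Figure D5:**
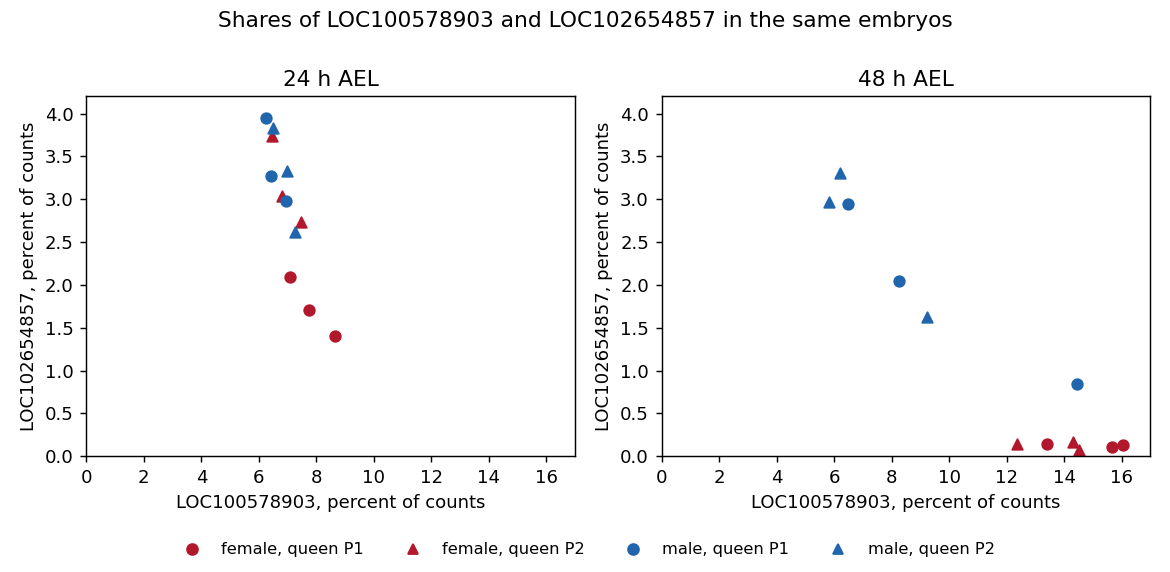
Share of counts of LOC102654857 against that of LOC100578903 in the same embryo (percent, linear axes) at 24 h and 48 h AEL, females in red and males in blue, circles for queen P1 and triangles for queen P2. At 24 h the 12 embryos run from 6.26% and 3.94% to 8.63% and 1.41%, and at 48 h the females lie at or below 0.170% on the vertical axis.

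Genes next in order show where the choice of members ended. At 24 h, over both sexes, mael took 1.33% and tral 1.12% of the counts, behind 2.89% for LOC102654857; in Drosophila, maelstrom acts in the piRNA pathway of the germline and trailer hitch is a component of maternal RNA particles. In 48 h females LOC411450, a probable ATP-dependent RNA helicase DDX43-like, followed the pair with 0.579%. In 48 h males tral (2.51%) was above LOC102654857 (2.29%), and LOC102655096 (2.25%) just below it. Over both sexes at 48 h, LOC102655096 (1.33%), tral (1.28%), mael (1.00%) and LOC410791 (mitochondrial uncoupling protein 2-like, 0.914%) were above LOC102655058 (0.650%). LOC409207 (synaptic vesicle membrane protein VAT-1 homolog-like, 0.572%) and LOC726487 (a histone H2B-like gene, 0.563%) were above LOC409681 (0.548%). These genes outside the members were left out although a ranking over both sexes would place each above a member. In 72 h males LOC102655096 led with 6.62%, before LOC102654857 with 4.14% and LOC100578903 with 3.94%. In 72 h females LOC100578903 was first on average with 1.34%, before RpS30 with 0.793% and RpL40 with 0.781%, both ribosomal protein genes, but ranked from 1 to 7 in single embryos.

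The most similar courses over the 36 embryos were sought among the 6542 other genes that averaged 10 TMM-scaled CPM or more, by Pearson's r of log2(CPM + 1). The embryos share the groups, queens and the scaling, so r describes likeness of course and carries no p. For LOC102654857 the closest were kinesin-3D (r = 0.988) and LOC408817, alanine--glyoxylate aminotransferase 2-like (r = 0.988). LOC408817 went from a mean of 592 CPM to 28.1 and 2.54 in females and from 590 to 961 and 1690 in males, and so parted between the sexes like the lncRNA. For LOC100578903 the closest were the uncharacterized LOC100576568 (r = 0.969), with 522, 1660 and 22.7 CPM in females at 24, 48 and 72 h, and LOC725766 (r = 0.941), NF-kappa-B inhibitor cactus-like, named for the Drosophila inhibitor that holds Dorsal in the cytoplasm. For LOC102655058 they were LOC102653813 (r = 0.975) and LOC100578060 (r = 0.924), for LOC409681 LOC102653813 (r = 0.968) and LOC100576568 (r = 0.958). LOC102653813 and LOC100578060 are uncharacterized neighbours in the annotation, and averaged 23.3 and 78.1 CPM in 24 h females and 127 and 412 in 48 h females.

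Lists of other genes give the setting of the 72 h comparison. Of 15 cytosolic ribosomal proteins tested, taken only where the product name starts with 40S or 60S, 14 were higher in females and 0 in males. Their median log2 fold change was 2.72. Of 3 mitochondrial genome genes all 3 were higher in males (median -3.20), and of 6 muscle genes 2 were higher in females and 3 in males (median -0.91). Of the 11 genes tested within 50 kb of a member, 1 was higher in females (9.09%) and 4 in males (36.4%; median 0.11), against 38.2%, 26.8% and a median of 0.41 over all genes. The 4 were LOC100578984 (-4.43), Nrx-1 (-3.69), LOC102655621 (-1.51) and LOC726948 (-1.46). With the sum of counts alone as library size, 5 of the 11 were higher in females (45.5%) and 2 in males (18.2%), against 61.1% and 15.1% of all genes.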

How the data were processed

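Single-embryo cDNA was made with the SMART-Seq v4 kit, amplified and sequenced by the authors, who trimmed and filtered the reads, aligned them to Amel_4.5 with TopHat2 and kept unambiguous alignments. The authors deposited raw counts and RPKM of 12365 genes; the counting tool and its strand setting are not given in the sources used here. Dividing counts by RPKM and length gave the total behind the RPKM. Gene positions came from the deposited annotation of 13592 genes. The laying window differs between the labels and the methods. The queen and the batch of the labels cannot be told apart.

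Counts were fitted with edgeR 4.0.16 in R 4.3.3, using TMM, filterByExpr (minimum count 10, minimum total 15) and the quasi-likelihood F-test. Calls required an adjusted p under 0.05 with a log2 fold change beyond 1 in either direction. Cytosolic ribosomal proteins were taken where the product name starts with 40S or 60S ribosomal protein, without those named mitochondrial. Genes named otherwise, RpS30 and RpL40 among them, are not in this list. The fit was tested on simulated counts in which as many genes were raised as lowered. That simulation does not bear on the choice of library size. Shares were compared by exact permutation, on both sides. Alternatives were RLE and upper-quartile normalization, no composition correction, DESeq2 1.42.0, no filter, each queen alone, 72 h embryos alone, other denominators and leaving out each embryo. The members and lists were chosen with earlier results of these data known. Named genes were the members, the genes next to them, those ranked next by share at 24 and 48 h, and for each member the 2 of most similar course. LOC409680, Nrx-1, LOC102655073, RpS30, RpL40 and the called genes near a member were named after their values were seen. No sequence is printed.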

Additional observations from a re-analysis of the deposited data

Results flagged for a closer look

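Each member's share of counts was examined in 24 groups of 6 embryos for an embryo apart from the others by more than 0.625 of the range, a test that chance passes in about 1 of 20 groups. In 72 h females, embryo 15 of queen P1 was highest, with 3.40% for LOC100578903 and 0.0376% for LOC409681. In 72 h males, embryo 11 of queen P1 was highest for LOC409681 (0.137%), and in 24 h females, embryo 35 of queen P2 was lowest for LOC102655058 (0.0913%). The lncRNA LOC102654857 moved in opposite directions in the sexes between 48 and 72 h by share of counts, by -0.113 percentage points in females and 1.85 in males, with no overlap between times in either sex. The difference between the sexes in this change was not tested, since the 48 h levels served to choose the gene. By RPKM the 48 and 72 h males overlapped.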

How the results depend on the processing

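At 72 h all 4 transcripts were lower in females under each alternative of the fit and of the share test, although within queen P1 the mean RPKM of LOC100578903 (4351 against 4112) and LOC102655058 (258 against 253) was higher in females. With the total behind the RPKM, added after seeing the data, the edgeR log2 fold changes of LOC100578903 and LOC102655058 were -0.263 and -0.0607 and lost their calls. As shares of that total their differences were -0.132 and -0.000673 percentage points (exact p = 0.749 and 0.896). In queen P1 and queen P2 alone the differences of shares were -2.39 and -2.81 points for LOC100578903, -3.87 and -4.37 for LOC102654857, -0.0555 and -0.0474 for LOC102655058, and -0.0992 and -0.0951 for LOC409681, where 3 against 3 embryos cannot pass the threshold. Leaving out each 72 h embryo in turn kept every call and gave log2 fold changes of -3.33 to -2.69 (LOC100578903), -9.71 to -9.50 (LOC102654857), -2.73 to -2.56 (LOC102655058) and -3.89 to -3.60 (LOC409681). As a share of the total behind the RPKM the 4 together averaged 8.01% in females and 7.94% in males at 24 h, 10.2% and 6.09% at 48 h, and 0.941% and 2.15% at 72 h, and as a share of summed RPKM 5.66%, 5.48%, 11.4%, 5.32%, 0.671% and 1.97% in the same order. No paired analysis was possible because the replicate numbers name single embryos and the sexes of a queen share at most 1 number at 72 h. Reads carry no molecular identifiers, so that counts are not independent molecules. The lowest counts of a member were 607 per embryo, and the male libraries at 72 h were the shallowest.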
